A study of Homo sapiens with 8 samples.

Results

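Nthy-ori 3-1 is an immortalized line of normal human thyroid follicular cells, and its response to pre-miR-375, a synthetic precursor that delivers miR-375, was measured on 4 of the 8 one-colour arrays of the series. The 4 arrays were chosen by their labels, ORI_CTL 1 and 2 and ORI_premiR-375 1 and 2. The labels give 48 h of transfection for all 4, 5 nM pre-miR-375 for the treated cells and only the name CTL for the control cells, which the methods of the study describe as transfected with a control precursor. The methods give a higher concentration of precursor than the labels, and which was used for these arrays is not known. Arrays of equal replicate number lay on the same slide and form a pair. The other 4 arrays carried TT cells, a medullary thyroid carcinoma line, 2 with an inhibitor of miR-375 and 2 controls, and entered only 4 of the alternative settings. The methods call the replicates biological, and neither they nor the labels say whether these came from separate cultures, so p-values measure the spread between these samples. No probe of the array measures miR-375 itself, so the transfection cannot be read from these files. The follicular identity of the line was checked on 13 marker genes. Of these, 6 were well above background on all 4 arrays, among them the transcription factors PAX8, FOXE1 and HHEX and, at a dim level, the thyroglobulin gene TG, and 5 were on none, among them the receptor TSHR and the transcription factor NKX2-1.

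A miRNA guides a silencing complex to messenger RNAs that hold a match to its seed, bases 2 to 8 counted from the 5′ end, and these transcripts are then translated less and degraded. miR-375 is known from endocrine cells, above all pancreatic islets and the C cells of the thyroid, and follicular cells make little of it. Transcripts without a match can move as well, when a regulator upstream of them is silenced. The mature miRNA, from RefSeq (GRCh38.p14, chr2:219001648-219001669, minus strand), is shown because every count of sites below derives from its seed, in capitals.

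hsa-miR-375-3p: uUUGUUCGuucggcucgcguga

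The reverse complement of this seed, written as DNA, is CGAACAA, and the reverse complement of bases 2 to 7 followed by an A is GAACAAA. Each probe of the array is a 60-base stretch of its transcript, so a probe can hold such a 7-base match only where it happens to cover one. Among 16238 genes with an average log2 signal of at least 6, 105 probes (0.647%) held 1 of the 2 matches. Among the 66 genes whose fitted log2 fold change was -2 or below, with both pairs lower, 4 did (6.06%). Among the 533 lower by at least 1 it was 17 (3.19%), and among the 307 higher by at least 1 it was 1 (0.326%). The antisense of the same 7 bases, which the miRNA cannot pair with, was in 0.911% of all probes, in 1.13% of those lower by at least 1 and in 0.977% of those higher by at least 1. The probes around the match in genes from both the strongest and the milder decreases are shown, 30 bases each, with the match in capitals.

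EVI2A, probe chr17:29645402-29645461, log2 fold change -2.80: cacttggaaaaGAACAAAacagctcacagg
WBP1L, probe chr10:104575444-104575503, log2 fold change -2.01: tgtctcaaaggCGAACAAgttttaccaaaa
C1QBP, probe chr17:5336248-5336307, log2 fold change -1.73: ctttggccagtGAACAAAtcctactctgaa
CXCL1, probe chr4:74736850-74736909, log2 fold change -1.60: gtgtttctggcttaGAACAAAggggcttaa
SNORD116-19, probe chr15:25328768-25328827, log2 fold change -2.52: ggaaagctGAACAAAatgagtgaaaactct
SNORD116-6, probe chr15:25310210-25310269, log2 fold change -2.35: gaaaagctGAACAAAatgagtgaaaactca

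Positions are those of the array files (hg19). The last 2 lines are copies of 1 gene family with nearly the same letters, and 4 of the 17 matches lay in such copies, so they are not 4 separate cases. With small nucleolar and small Cajal body RNAs left out, 13 of 507 probes lower by at least 1 held a match (2.56%), 2 of 53 of those lower by at least 2 (3.77%) and 98 of all 16012 (0.612%). EVI2A encodes a membrane protein, WBP1L a WW domain binding protein, C1QBP a mostly mitochondrial protein, and CXCL1 a neutrophil chemokine. EVI2A is absent from the 12 ranked decreases below, although its value of -2.80 is lower than that of RFLNA (-2.70) among them. That ranking asks for a signal well above background on all 4 arrays, so the fold change of EVI2A rests in part on a signal near background. A match within a probe is a description of letters and not a site shown to be used.

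After quantile normalization of the 4 arrays, 27722 probes of 20761 genes were well above background on at least 2 arrays and were tested with limma, where the replicate number entered as a block. At an adjusted p of 0.05, limma called 0 probes lower and 0 higher, 0% of those tested in each direction, and the smallest adjusted p was 0.0859. At an unadjusted p under 0.05 there were 7351 probes where 1386 would be expected without any effect, 3681 of them lower and 3670 higher. Of 14 alternative settings, 8 called 0 probes as well and 6 called 2351 to 4713, for example 5.05% of probes lower and 3.6% higher with both cell lines in one fit, or 6.48% and 5.7% with the log2 values of the authors' table. No single gene passed the test as designed, and the values below are given as differences. With 2 pairs the fit has 1 residual degree of freedom, and the smallest adjusted p depends on how much limma borrows across probes.

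Counts of calls within gene groups come from 1 alternative, which tests only the 24192 probes well above background on all 4 arrays, with the same signals and fold changes. This choice was made after the counts of the test as designed were known. It called 1366 probes lower (5.65%) and 985 higher (4.07%), and taking the brightest probe of each gene it called 5.51% of 18335 genes lower and 4.3% higher. "Called" below refers to this alternative, and these shares of all genes are the background of every count of calls. Of all genes tested, 32.8% were lower in both pairs and 38.4% higher in both. In the test as designed with limma, the called members of the lists had adjusted p-values of 0.0859 to 0.111. This range leaves out the lists of small nucleolar RNAs, LINC-named RNAs, long intergenic RNAs without a name and cell type markers.

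**Figure D1:**
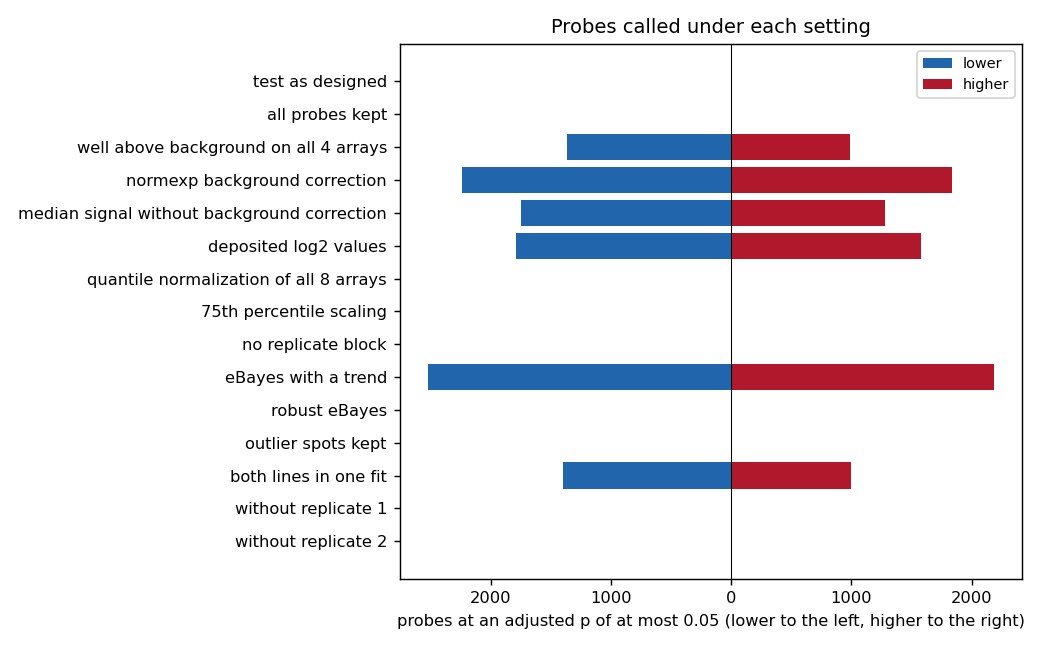
Number of probes that limma placed at or below an adjusted p of 0.05 under the test as designed and 14 alternatives, lower with pre-miR-375 to the left and higher to the right. The test as designed and 8 alternatives have no bar, and the others call more probes lower than higher.

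The responses of the 2 pairs went together in part. Over 24192 probes the log2 fold changes of pair 1 and pair 2 correlated at r = 0.665, a description across probes that are not independent replicates. The median absolute log2 fold change was 0.26, the median absolute difference between the pairs 0.222 and the median absolute difference between the replicate numbers 0.379. Of the genes with an average of at least 6, 74.4% had the same direction in both pairs. By at least 0.5 on the log2 scale, decreases and increases were about as many, 1770 and 1697 genes. Among larger differences decreases were more numerous: 533 genes were lower by at least 1 (3.28%) and 307 higher (1.89%), 66 lower and 18 higher by at least 2, and 5 lower and 3 higher by at least 3. By at least 1 in each pair, 404 were lower and 192 higher. Protein-coding genes made up 80.9% of the genes lower by at least 1, 74.9% of those higher and 74.0% of all with that average. In 191 of 228 genes past 1 with several probes, every probe had the same direction.

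**Figure D2:**
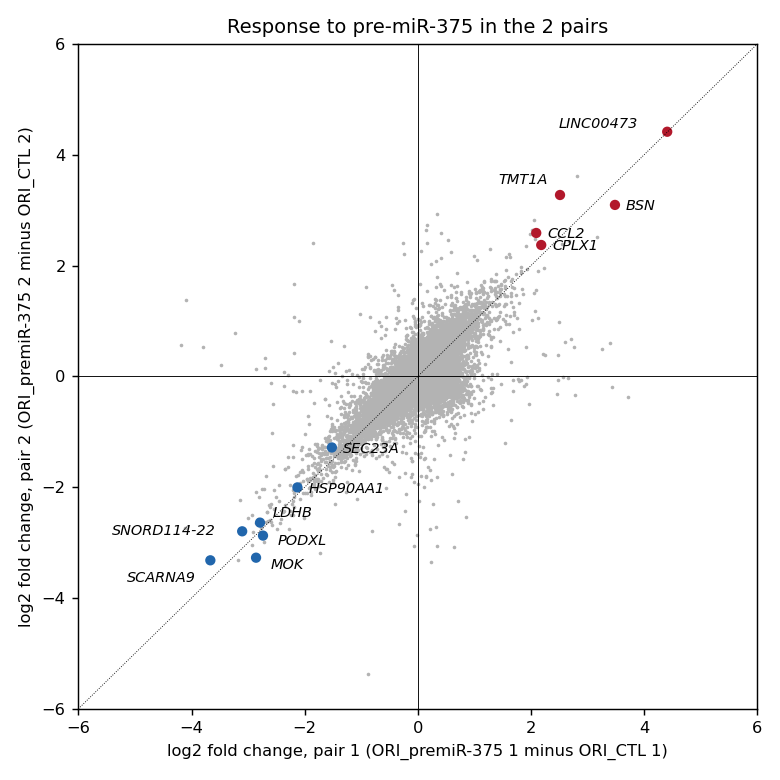
Log2 fold change of each gene with an average log2 signal of at least 6 in pair 1 (x axis) and pair 2 (y axis), with named genes in blue (lower) and red (higher). The named genes lie near the dotted line of equal change, while some unnamed ones differ from 0 in 1 pair only.

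MOK, a protein kinase related to the MAP kinases, had the lowest log2 fold change of the protein-coding genes ranked. Its log2 signal was 13.60 and 13.97 in the control arrays and 10.74 and 10.69 with pre-miR-375, a log2 fold change of -3.07 (SE 0.163) or 8.37-fold lower, and its other probe gave -3.16. The treated arrays lay close together and far below both control arrays. MAT2B, the regulatory subunit of the enzyme that makes S-adenosylmethionine, read 9.50 and 10.88 in controls and 6.58 and 8.07 with pre-miR-375 (log2 fold change -2.86, SE 0.118). Replicate 2 was brighter than replicate 1 in both groups, and the difference within each pair was nearly the same, -2.91 and -2.80.

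PODXL, a sialomucin of the cell surface, read 12.66 and 13.00 in controls and 9.93 and 10.13 with pre-miR-375 (log2 fold change -2.81). YWHAZ, an adapter protein that binds phosphorylated partners, read 12.72 and 13.14 against 9.95 and 10.41 (-2.76). LDHB, the lactate dehydrogenase subunit that favours lactate oxidation, read 16.26 and 16.86 against 13.47 and 14.22 (-2.71), and its other probe gave -2.92. The fold for LDHB was 6.56-fold lower, and both of its probes gave a similar difference. RFLNA, a regulator of actin filament bundles, read 7.58 and 8.82 against 4.76 and 6.24 (-2.70). KIAA1191, which the study names, read 13.50 and 13.44 against 11.48 and 11.33 (-2.07). Over all probes tested, both treated arrays lay below both controls for 17.6% and above both for 18.8%. In none of the genes named here did the groups overlap. All except KIAA1191 were chosen for large falls in both pairs, so this was nearly fixed by the choice. Adjusted p was 0.0859 for each in the test as designed and 0.0202 on probes above background on all 4 arrays, and over all alternatives it ran from 0.00102 to 0.337 for LDHB and from 0.00105 to 0.46 for MAT2B.

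**Figure D3:**
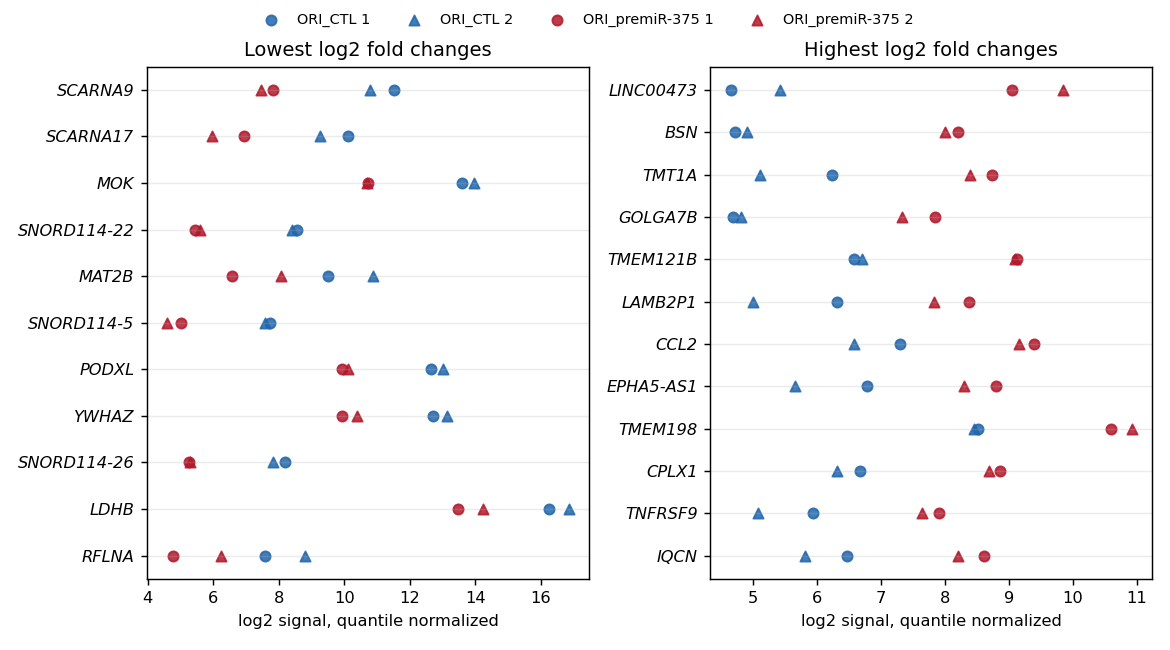
Quantile-normalized log2 signal of each array for 11 of the 12 genes with the lowest and the 12 with the highest log2 fold change, controls in blue and pre-miR-375 in red, circles for replicate 1 and triangles for replicate 2. In every gene shown both red points lie on the same side of both blue points, which the choice by size and direction nearly fixes.

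The 12 genes with the highest log2 fold changes had log2 signals of 4.65 to 8.52 on the control arrays. LINC00473, a long non-coding RNA known as a target of cAMP signalling and CREB, read 4.65 and 5.42 in controls and 9.05 and 9.84 with pre-miR-375. Its log2 fold change was 4.41 in pair 1 and 4.42 in pair 2 (SE 0.114), or 21.3-fold higher. With the deposited values, the median signal or normexp the fold was 8.88 to 9.93. BSN, a scaffold of the presynaptic active zone, read 4.72 and 4.91 against 8.20 and 8.00 (log2 fold change 3.29, and 1.77 to 1.86 under those 3 settings). CPLX1, complexin of the vesicle fusion machinery, read 6.67 and 6.32 against 8.85 and 8.69 (2.28). BSN and CPLX1 are best known from neurons, which is background on single genes and not a count over a group.

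TMT1A, a thiol methyltransferase, read 6.23 and 5.11 in controls and 8.74 and 8.38 with pre-miR-375 (log2 fold change 2.89). CCL2, a monocyte chemokine, read 7.30 and 6.57 against 9.39 and 9.16 (2.34). TNFRSF9, a costimulatory receptor of the TNF family, read 5.93 and 5.08 against 7.91 and 7.65 (2.27). The controls of these 3 genes differed from each other more than the treated arrays did. GOLGA7B, TMEM121B, LAMB2P1, EPHA5-AS1, TMEM198 and IQCN completed the 12, with log2 fold changes of 2.27 to 2.84. For IQCN the direction rests on 1 of 2 probes, since the other gave -0.25. Adjusted p was 0.0859 or 0.0860 in the test as designed for all 12, and 0.0202 to 0.0239 on probes above background on all 4 arrays.

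Some genes crossed the background level. In 230 genes the probe was well above background on both treated arrays and on neither control, and in 67 the reverse. The array of ORI_premiR-375 2 had the most spots well above background (35513) and that of ORI_premiR-375 1 the fewest (32071), against 32889 and 33104 in controls. Folds for such genes are lower bounds, against the lowest normalized signal well above background on the dim arrays or the signal of the probe itself where that was higher. SCG2, a granin of secretory granules, was at least 9.32-fold higher (5.72 in pair 1 and 15.2 in pair 2), KCNC1, a voltage-gated potassium channel, at least 8.41-fold, SP5, a transcription factor of the Wnt response, at least 7.55-fold and CHRNB2, a nicotinic receptor subunit, at least 7.35-fold. ATXN3L, a deubiquitinase, was at least 7.14-fold lower, PLEKHA7, a protein of adherens junctions, at least 5.55-fold, PKD1L1-AS1 at least 5.16-fold and ADAMTS6, a secreted metalloproteinase, at least 4.53-fold (2.64 in pair 1 and 7.77 in pair 2). These genes were chosen for lying above background in 1 group only, so no test is given for them.

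SCG2 also belongs to a list of 12 C cell markers, of which 11 are on the array. It and 4 others, CHGA, CHGB, SYP and CALCA, were above background on both treated arrays and on neither control. CHGA and CHGB encode granins and SYP a synaptic vesicle protein, and they were at least 1.63-, 2.96- and 2.91-fold higher, with 1.89 in pair 1 and 4.65 in pair 2 for CHGB. CALCA, the calcitonin gene, read 3.92 and 3.55 in controls and 8.29 and 4.56 with pre-miR-375, so its treated arrays differed widely and the bound of 4.08-fold rests on replicate 1 (pair 2 gave 1.09-fold). Of the 4 markers above background on all 4 arrays, 0 were called. GFRA1, a receptor component for a neurotrophic factor, read 12.58 and 12.33 against 12.43 and 12.25, and ENO2, the neuronal enolase, 10.28 and 10.37 against 10.38 and 10.90. NCAM1, a neural cell adhesion molecule, read 10.31 and 9.54 against 9.58 and 9.06 (log2 fold change -0.60). The summed marker signal was 13.1 and 12.8 in controls and 13.0 on both treated arrays on the log2 scale. GFRA1 sets most of this sum, so it does not show what the dim markers did. Whether the dim signals come from few cells or from little RNA per cell cannot be told apart in bulk RNA.

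The list of earlier targets held 16 genes, listed by names that earlier work linked to miR-375, of which 14 were tested. Of 13 on probes above background on all arrays, 5 were called lower and 0 higher, against 5.51% and 4.3% of all genes, and the median log2 fold change was -0.28 against 0.04 over all genes tested. YAP1, the transcriptional coactivator of the Hippo pathway, read 11.90 and 11.57 in controls and 9.99 and 9.68 with pre-miR-375 (log2 fold change -1.90, SE 0.114). PDK1, a kinase that inhibits pyruvate dehydrogenase, was lower by 1.42, SEC23A by 1.40, the mitochondrial import protein TIMM8A by 1.32 and myotrophin (MTPN) by 1.23 on the log2 scale. The name PDK1 is also used for another kinase gene, PDPK1, which the list holds too. Which of them earlier work meant was not settled here, so the 5 called lower may include a gene that is no earlier target. TIMM8A has a second probe that gave -0.25. JAK2 read -0.61 (adjusted p = 0.07 from limma on probes above background on all arrays) and IGF1R 0.44, neither of them called. This list was drawn up with results of these data known and is no independent evidence of its direction.

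SEC23A encodes a subunit of the coat of COPII vesicles, which carry cargo from the endoplasmic reticulum. It read 11.23 and 11.54 in controls and 9.71 and 10.26 with pre-miR-375, with log2 fold changes of -1.52 and -1.28 in the 2 pairs. The coat as a whole did not follow it, with a median of 0.02. Of 13 members tested, 5 were lower in both pairs and 6 higher, against 32.8% and 38.4% of all genes. Only SEC23A and SEC31B (-0.64) were called, both lower, while the paralog SEC23B read 0.02 and SEC24D 0.38. The sign of that median turns to -0.03 with scaling at the 75th percentile and to -0.11 without replicate 2.

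Genes downstream of YAP1 and its partner TAZ, the outputs of the Hippo pathway, had a median close to that of the ATF4 list below. Of 18 tested, 13 were lower in both pairs, where 32.8% of all genes were. Of 17 on probes above background on all arrays, 6 were called lower and 0 higher, against 5.51% and 4.3% of all genes. The median of 18 was -0.46, with -0.55 in pair 1 and -0.38 in pair 2. The matricellular factor CCN2 read 9.34 and 9.95 in controls and 7.49 and 8.14 with pre-miR-375 (log2 fold change -1.83). Tissue factor, F3, was lower by 1.91 and the cardiac ankyrin repeat gene ANKRD1 by 1.41. WWTR1, which encodes TAZ and is outside that list, had log2 fold changes of -1.11 and -0.90 in the pairs and is among the genes whose probe held a match to the seed. Members at the other end were NUAK2 (0.68) and ARHGEF17 (0.26), not called.

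Of 24 heat shock and chaperone genes, 5 were called lower and 0 higher, against 5.51% and 4.3% of all genes. In both pairs 20 of 25 tested were lower, where 32.8% of all genes were. Their median was -0.38, with -0.47 in pair 1 and -0.24 in pair 2. HSP90AA1, the inducible cytosolic HSP90, read 16.21 and 17.10 in controls and 14.08 and 15.09 with pre-miR-375 (log2 fold change -2.07), and 3 of 3 probes were lower. HSPH1 was lower by 1.18 and CHORDC1, a co-chaperone of HSP90, by 1.14, while HSPB8 read 1.59, with 2.18 in pair 2, and was not called (adjusted p = 0.0587 from limma on those probes). Of 28 genes of the ATF4 and integrated stress response, 6 were called lower and 0 higher, against the same shares of calls. Their median was -0.45, with -0.43 in pair 1 and -0.25 in pair 2. EIF2S1, the subunit of the initiation factor whose phosphorylation starts that response, read 9.86 and 10.43 against 7.49 and 8.00 (-2.40), and the serine synthesis enzyme PSAT1 was lower by 1.26. The unfolded protein response of the endoplasmic reticulum had calls in both directions, 3 lower and 2 higher of 24, against 5.51% and 4.3% of all genes. In both pairs 15 of the 24 were higher and 3 lower (median 0.16), against 38.4% and 32.8% of all genes. The membrane translocation protein DERL1 read -1.26 and the chaperone DNAJB9 1.46.

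Growth signalling and cell cycle lists had medians nearer to 0. Of 18 ERK feedback and immediate early genes on such probes, 5 were called lower and 1 higher (median -0.28), against 5.51% and 4.3% of all genes. FOSL1, a subunit of AP-1, was lower by 1.69, PHLDA1 by 1.44 and SPRED1, an inhibitor of RAS signalling, by 1.41, while the transcription factor ETV1 was higher by 1.90. Of 35 genes of DNA replication, 4 were called lower and 1 higher, against 5.51% and 4.3% of all genes. Among those lower were thymidylate synthase (TYMS) at -1.42, UHRF1 at -1.37 and the origin licensing factor CDC6 at -1.11. The gene called higher was cyclin E2 (CCNE2) at 0.90. The median of -0.18 thus covered a few large differences and many small ones. Of 35 genes of mitosis, 3 were called lower, against 5.51% of all genes: CENPF (-1.51), BIRC5 (-0.99) and ANLN (-0.71). The median was -0.02.

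Of 22 glycolysis genes, 4 were called lower and 1 higher, against 5.51% and 4.3% of all genes, and the median of 23 was -0.11. Hexokinase 2 (HK2), the first enzyme of the pathway, read 10.82 and 11.05 in controls and 8.87 and 9.21 with pre-miR-375 (log2 fold change -1.90), and the glucose transporter SLC2A1 was lower by 1.01. The other transporter SLC2A3 was higher by 1.21. Of 34 matrix and adhesion genes, 7 were called lower and 2 higher (median 0.07), against the same shares of all genes. Thrombospondin 1 (THBS1) was lower by 1.88, the matrilin MATN2 by 1.61 and the integrin subunit ITGA3 by 1.18, and the metalloproteinase MMP3 was higher by 1.63. Of 5 epithelial markers, 3 were called lower (median -0.83), against 5.51% of all genes. The keratin KRT8 read 13.17 and 13.11 against 11.28 and 10.98, although 1 of its 3 probes gave 0.31. Markers of other cells gave summed log2 signals of 14.5 and 13.7 in controls and 15.0 and 14.9 with pre-miR-375 for fibroblasts (2 of 9 above background on all 4 arrays, with the sum set by the collagen gene COL1A1 and a list median of -0.41), 7.96 and 7.69 against 7.98 and 7.63 for endothelial cells (2 of 7) and 12.4 and 12.2 against 13.1 and 12.3 for leukocytes (7 of 7). These arrays carried a single cell line, and the study reports its lines as authenticated. The marker signals are therefore values of that line and no measure of other cells.

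Chemokine and cytokine genes of the NF-kB response did not share a direction. Of 19, 5 were called lower and 2 higher, against 5.51% and 4.3% of all genes. The median of 21 was -0.31 in the fit, 0.10 in pair 1, which is also its value without replicate 2, and -0.44 in pair 2. CXCL1 was lower by 1.60, BIRC3, an inhibitor of apoptosis, by 1.57, and LIF by 1.16, while CCL2 was higher by 2.34 and IL11 by 0.83.

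Several lists had higher medians. Of 31 interferon response genes, 0 were called lower and 5 higher, against 5.51% and 4.3% of all genes. In both pairs 24 of 33 tested were higher, where 38.4% of all genes were. Their median was 0.38 in the fit and in pair 1 and 0.25 in pair 2. IFITM1, a membrane protein that restricts virus entry, read 8.38 and 7.17 in controls and 10.18 and 8.49 with pre-miR-375 (log2 fold change 1.56), so the higher control and the lower treated array nearly met and the difference shows within pairs. USP18, the protease that removes ISG15, was higher by 1.24 and the RNA sensor IFIH1 by 0.82. Of 15 cAMP and CREB targets, 4 were called higher and 0 lower, against 4.3% and 5.51% of all genes (median 0.41, with 0.46 in pair 1 and 0.27 in pair 2). Those called were LINC00473, the nuclear receptor NR4A3 (6.08 and 6.17 against 8.31 and 8.13, log2 fold change 2.10), the phosphodiesterase PDE4B (1.11) and RGS2 (1.01 in pair 2). FOS (0.31), NR4A2 (0.55) and CREM (-0.17) were not called. The list was drawn up with earlier results of these data known, LINC00473 among them, so it is no independent evidence of its direction.

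Of 23 p53 targets, 5 were called higher and 1 lower (median 0.34), against 4.3% and 5.51% of all genes. Among those higher were the cell cycle inhibitor CDKN1A by 1.04, the antiproliferative factor BTG2 by 1.37 and TIGAR, a regulator of glycolysis, by 1.04, while DRAM1, also a gene of autophagy, had log2 fold changes of -1.69 and -1.31. Of 36 apoptosis regulators, 6 were called higher and 1 lower (median 0.18), against 4.3% and 5.51% of all genes. The initiator caspase CASP9 was higher by 0.98 and the executor of mitochondrial permeabilization BAK1 by 0.95. Of 23 cholesterol synthesis genes, 0 were lower and 18 higher in both pairs (median 0.30), against 32.8% and 38.4% of all genes. The differences were small: 1 was called, mevalonate kinase (MVK) at 0.83. Of 34 autophagy and lysosome genes, 22 were higher in both pairs, where 38.4% of all genes were (median 0.28). Only 2 were called higher and 1 lower, against 4.3% and 5.51% of all genes, so the calls do not set this list apart. Among 18 genes of the silencing machinery, DICER1, the nuclease that cuts miRNA precursors, read 9.41 and 9.97 in controls and 11.26 and 11.45 with pre-miR-375 (log2 fold change 1.67), DCP2, a decapping enzyme, was higher by 0.80 and PRKRA, a partner of DICER1, lower by 0.80. The median of that list was 0.07. AGO2 read 0.16. TGF-beta targets (median 0.08, 2 of 15 called lower and 1 higher) and the large subunit of the mitochondrial ribosome (median -0.03, 1 of 47 called lower, MRPL12 at -1.09) stayed near the median of all genes.

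**Figure D4:**
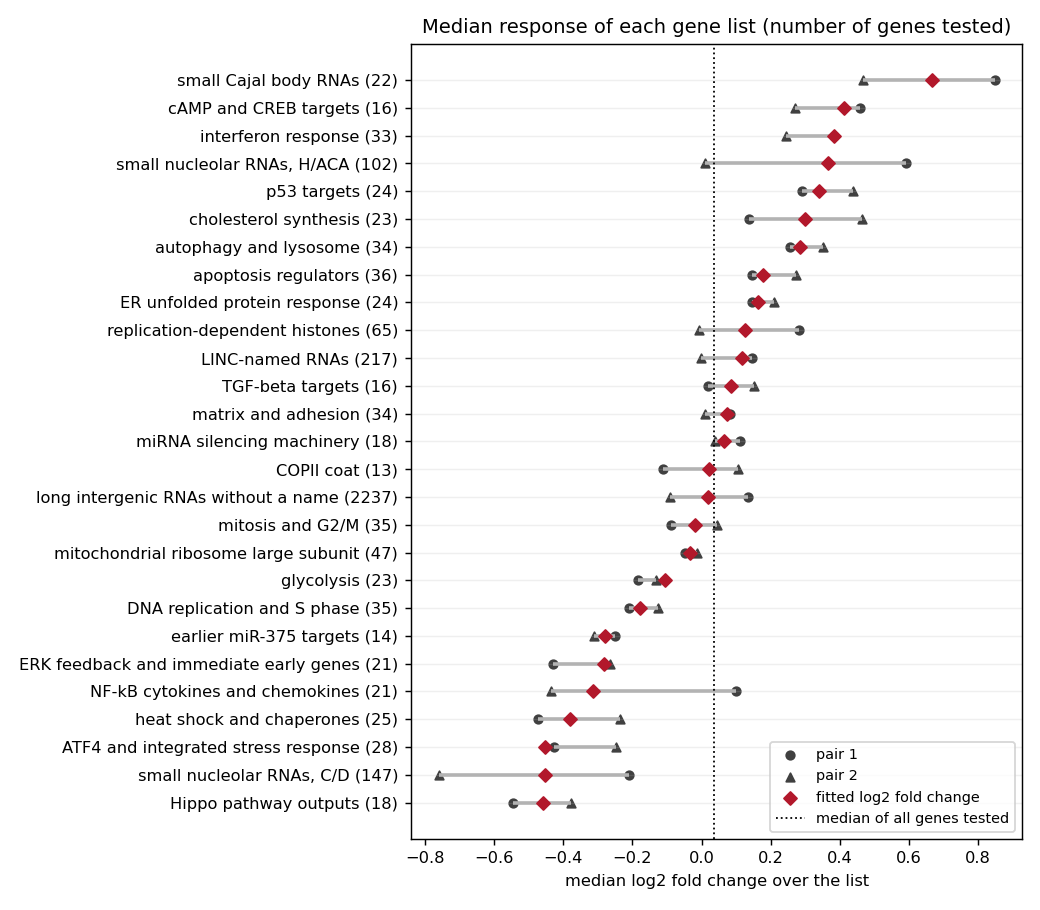
Median log2 fold change of each gene list in pair 1 (circle), pair 2 (triangle) and the fit of both (red diamond), with the number of genes tested in brackets and the median of all genes as a dotted line. The Hippo pathway outputs stand at -0.46 and the small Cajal body RNAs at 0.67.

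Small RNAs of the nucleus included the lowest values of the genes ranked. Small nucleolar RNAs of the C/D class guide methylation of ribosomal RNA, those of the H/ACA class guide pseudouridylation, and small Cajal body RNAs guide both in spliceosomal RNAs, and most are cut from introns of a host transcript. SCARNA9 read 11.51 and 10.79 in controls and 7.84 and 7.47 with pre-miR-375 (log2 fold change -3.49, SE 0.15), the lowest of all genes ranked, and SCARNA17 read 10.13 and 9.27 against 6.95 and 5.96 (-3.24). The other small Cajal body RNAs mostly differed the other way: of 22, 9 were called higher and 3 lower, against 4.3% and 5.51% of all genes. The median was 0.67, with SCARNA20 higher by 1.47.

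2 clusters of C/D RNAs, each with many near-identical copies in 1 imprinted region, were lower together. SNORD114 RNAs lie on chromosome 14, and all 15 tested were lower by at least 1 in the fit and lower in both pairs, with a median of -2.27 and a range from -2.95 in SNORD114-22 to -1.11. SNORD114-22 read 8.56 and 8.40 in controls and 5.45 and 5.60 with pre-miR-375. SNORD114-5 read 7.74 and 7.58 against 5.03 and 4.60. SNORD116 RNAs lie on chromosome 15, and all 8 tested were lower in both pairs, 7 by at least 1, with a median of -2.17 and a range of -2.96 to -0.27. Only 5 of these 8 were on probes above background on all arrays, and 4 of the 5 were called lower. For SNORD114 it was 14 of 15, with 13 called lower. Over all genes 5.51% were called lower. The median was lower in every setting run, from -2.51 to -1.51 for SNORD114 and from -2.33 to -0.89 for SNORD116. Of these probes, 13 of 15 and 7 of 8 shared a run of at least 20 bases with another of the same cluster, so the signal of a probe may come from several copies and the members are not separate observations.

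Of 6 other transcripts looked up in the same regions, 5 did not share the decrease and 1, UBE3A, read lower. MEG3, the long non-coding RNA upstream of the chromosome 14 copies, had log2 fold changes of 0.49 and 0.48, and MEG8, nearer to the SNORD114 copies, -0.08. On chromosome 15, SNRPN and SNURF, from the start of the transcript that hosts SNORD116, had log2 fold changes of 0.32 and 0.72, and IPW, beyond the copies, 0.62. UBE3A, which lies further on in the opposite orientation, read -1.54. These neighbours were looked up after the values of the 2 clusters were seen.

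The remaining 124 C/D RNAs had a median of -0.37 (-0.12 in pair 1 and -0.63 in pair 2). Of 111 on probes above background on all arrays, 13 were called lower, among them SNORD60 at -1.31, and 0 higher. Over all genes 5.51% were called lower and 4.3% higher. H/ACA RNAs had a median of 0.37, but this was 0.59 in pair 1 and 0.01 in pair 2. Of 99, 24 were called higher, with SNORA38B at 2.01, and 5 lower, with SNORA24 at -1.58. All of these families were also lower in replicate 2 than in replicate 1 in both groups. Median replicate differences were -0.63, -0.84 and -0.87 for other C/D, H/ACA and small Cajal body RNAs and -0.83 for histone genes. For SNORD116 RNAs the median replicate difference was -1.12 and for SNORD114 RNAs -0.20. The part of these in the treatment differences was not tested. The labels name polyA RNA and the methods total RNA, and a probe cannot separate a small RNA from the unspliced transcript that holds it.

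**Figure D5:**
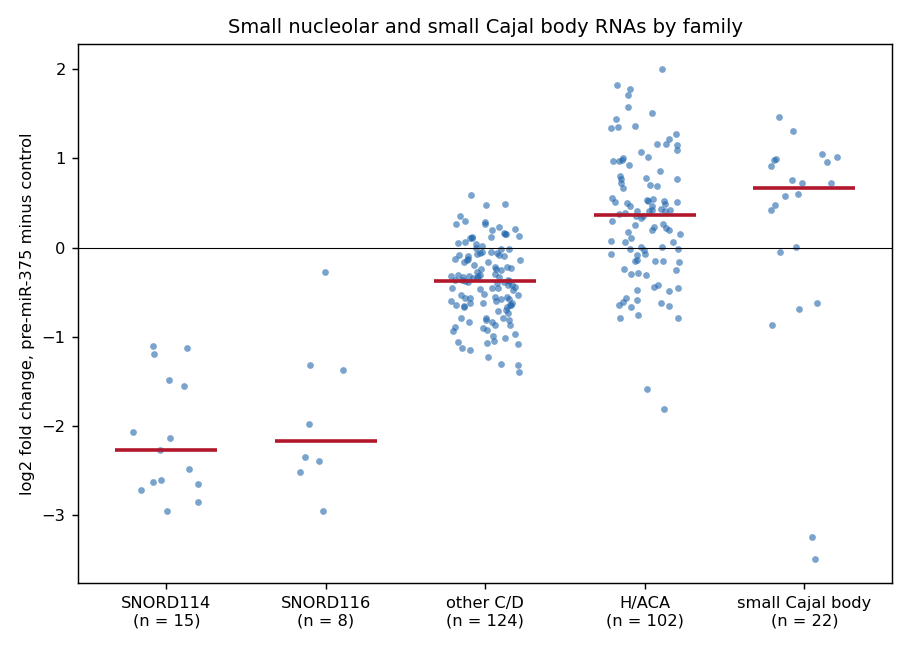
Log2 fold change of each small nucleolar or small Cajal body RNA tested, by family, with the family median as a red line. The SNORD114 and SNORD116 members all lie below 0, other C/D RNAs centre at -0.37 and H/ACA RNAs at 0.37, and 2 small Cajal body RNAs stand apart below -3.

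Replication-dependent histone genes had a median of 0.13 (0.28 in pair 1 and -0.01 in pair 2), with 2 of 63 called higher and 0 lower. Of 1624 long intergenic RNAs without a name, 38 were called lower and 45 higher, smaller shares than the 5.51% and 4.3% of all genes, and of 175 with a LINC name 3 were called lower, with LINC02901 at -2.35, and 10 higher.

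The replicate number itself separated the arrays more than the treatment did for many genes. The differences between replicates of control arrays and of treated arrays correlated at r = 0.782 over 24192 probes. RNU12, the RNA of the minor spliceosome, read 9.09 and 6.99 in controls and 9.62 and 7.04 with pre-miR-375, and ACAP2, a regulator of ARF6, read 6.18 and 8.52 against 6.54 and 8.77. Within pairs the log2 fold changes were 0.54 and 0.05 for RNU12 and 0.36 and 0.25 for ACAP2. Of the others chosen by the same rule, MDGA1 (0.21 and 0.19), SLC35B3 (0.34 and 0.27) and DDX60 (0.32 and 0.07) also differed little within pairs. TUBBP5 (0.89 and 0.17), SNORA53 (-1.41 and -0.09) and NECAP1 (0.61 and 1.33) differed more. Because of such replicate differences the values above are read within pairs. The block coefficient of limma called 0 probes, with a smallest adjusted p of 0.0521.

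The promoters of genes higher with pre-miR-375 were searched for TGACGTCA, the palindromic cAMP response element, which reads the same on both strands, in the RefSeq windows of 250 bases before to 50 after each start. It was in 8 of 193 promoters of genes higher by at least 1 (4.15%), in 6 of 357 of those lower (1.68%), in 3.65% of the 10287 with an average of at least 6 and in 2.25% of all 27305. The 8 genes were VGF (log2 fold change 1.79), SIRT4, H2BC12, DIO2, PDLIM3, PARD6A, PTPRU and KIAA0408. VGF encodes a granin-like neuropeptide precursor, and DIO2, the deiodinase that activates thyroid hormone, read 5.41 on both control arrays and 6.51 and 6.95 with pre-miR-375. The first 5 letters of the element, TGACG, searched on both strands and contained in it, were in 28.5% of promoters of genes higher by at least 1, 35.0% of those lower and 39.9% of all with an average of at least 6.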

How the data were processed

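RNA of 4 Nthy-ori 3-1 samples was hybridised to one-colour Agilent arrays with probes placed on hg19. Scans were read with Feature Extraction 10.10.1.1. The spot intensities deposited from it are processed ones (background subtracted, surrogate values for dim spots) as well as mean, median and background ones, none normalized between arrays. The authors also deposited a table of log2 values, which by its distributions was quantile normalized within each line, from a signal that the sources used here do not name. RNA integrity numbers were 9 on all 4 arrays.

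The log2 processed intensity was used without control spots and outlier spots (398 to 428 per array), replicate spots were averaged per probe, and quantile normalization covered the 4 arrays. Of 50599 probes, 27722 well above background on at least 2 arrays were fitted with limma 3.58.1 in R 4.3.3 (lmFit and eBayes, replicate number as block, two-sided, Benjamini-Hochberg adjustment over all probes). SE is that of limma. Equal replicate numbers share a slide per the file headers, and differences between replicates correlated across groups (r = 0.782), which bears out the pairing. The fit was tested on simulated data. The number of arrays limits the precision.

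A gene was represented by its brightest probe on average. Names came from the files (6083 probes) or from RefSeq by symbol (18587), accession (2761) or synonym (291). Named were the 12 genes with the lowest and the 12 with the highest log2 fold change (average at least 6, above background on all arrays, same direction in both pairs; the rule asks for an adjusted p of at most 0.05 where enough genes pass, and none did), 4 lower bounds each way, 4 replicate differences each way and 5 genes named by the study or earlier results. One gene of these is not reported here. The rule names called members of lists, and the test as designed called none, so list members were chosen after their values were seen, as were the snoRNA clusters, their neighbours and the counts without small RNAs. Members, lists, the filter on dim probes and the tests were chosen with earlier results of these data known.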

Additional observations from a re-analysis of the deposited data

How the results depend on the processing

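The test as designed called 0 probes in either direction, and 6 of the 14 alternatives changed that. The numbers of probes called lower and higher were 1366 and 985 on probes above background on all 4 arrays, 2238 and 1839 with normexp, 1754 and 1278 with the median signal, 1795 and 1581 with the deposited values, 2525 and 2188 with a trend in eBayes, and 1399 and 999 with both cell lines in one fit. At the thresholds of the methods (log2 fold change of at least 1, average of at least 6, adjusted p of at most 0.05), the genes lower and higher went from 0 and 0 to 558 and 284, 396 and 181, 403 and 182, 396 and 200, 587 and 307, and 516 and 255, in the same order. The counts were 0 with all probes kept, quantile normalization of 8 arrays, scaling at the 75th percentile, robust eBayes and outlier spots kept, and 0 to 0 with 1 pair left out, a fit that takes its spread from TT cells, although 5674 to 7810 probes had an unadjusted p under 0.05 in these fits. Without the replicate block limma called 0 probes too, with 2394 at an unadjusted p under 0.05, against 7351 with the pairing, and a smallest adjusted p of 0.252 against 0.0859. With 0 calls to begin with, no call could be lost. Probes that differ between replicates went from 0 to 7373, 9014, 7939, 8483 and 9332 under the first 5 of these settings, to 2380 with 8 arrays and to 3933 at the 75th percentile. The cause was not tested, beyond that fewer and brighter probes enter the first alternative. In the 6 settings that change the signal or its scaling, 0 of 210 values of 35 named genes changed direction, and the fold was over 1.5 times smaller in at least 1 of them for 5 of the 11 genes shown with the lowest and 9 of the 12 with the highest fold change. The other settings keep the fold change or, with a pair left out, could not turn genes chosen for the same direction in both. Of 462 alternative medians of 33 lists, 17 had another sign, in 11 lists. With 2 arrays a group, a difference confined to 1 pair cannot be told from noise of 1 array.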
